A study of Homo sapiens with 4 samples.

Results

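The immunoprecipitate (IP) of SiHa cells labelled as YTHDF3 knockout was set against the input RNA of the same cells, to describe which transcripts an antibody against YTHDF3 recovered from cells labelled as lacking its target. All 2340 genes of the authors' deposited knockout table were taken, of 3905 genes listed for either cell line. SiHa is an established human cervical squamous carcinoma line. The IP and the input were 1 library each, made with a stranded mRNA kit, and the series has 4 libraries in all, the other two being the IP and the input of SiHa cells without the knockout. How the knockout was made, whether it is a single clone and how many cultures were used are not stated in the labels, and an IP with a control antibody was not analysed here. With 1 library a side and a table that was already thresholded, values are described without tests and without a replicate error.

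RNA immunoprecipitation followed by sequencing recovers RNA through a bound protein and compares it with RNA that was not precipitated. YTHDF3 is a cytoplasmic protein that binds N6-methyladenosine (m6A), a methyl mark on mRNA that is placed in the nucleus by a complex around METTL3 and METTL14. An IP from cells without the target shows what a precipitation brings down by other routes, and antibody specificity is one of the things such an IP is used to gauge.

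The column taken as the IP is named for the knockout and lacks the word input, but its lane differs from that in the sample's title, so its identity carries that doubt throughout. The levels are in the unit of the deposited table, which is unknown. Whether they were divided by gene length is unknown too, so an order of levels between genes is an order of deposited values only, whereas the ratio of IP to input within a gene is free of length. The authors' deposited table held only genes with a log2 fold change of at least 1. In every row that fold change was the log2 ratio of the 2 levels plus a constant of 0.81. The log2 ratio given here leaves the constant out, so its lowest value is 0.19, a 1.14-fold higher level in the IP than in the input. The listed genes were 21.2% of the 11034 genes tested, a number inferred from how the adjusted p-values scale with the p-values. The authors' adjusted p-value exceeded 0.05 for 459 of the 2340. A gene missing from the table either did not pass or was not tested, and its level is not known.

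YTHDF3 was not listed, nor were its paralogs YTHDF1 and YTHDF2. This does not measure how much YTHDF3 transcript or protein was left in the cells. Of the 11 fixed markers of squamous and simple epithelium only KRT17, a keratin of basal epithelium, was listed, at a level of 561 in the IP and 331 in the input. Of the fixed markers of immune, fibroblast, endothelial, neuronal and erythroid cells only the neuronal MAP2 was listed, at 10.4 in the IP and 3.34 in the input.

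Over all 2340 genes the median level was 23.8 in the IP and 8.08 in the input. The median log2 ratio of IP to input was 1.61, a 3.06-fold difference, with quartiles of 0.97 and 2.41. The IP level was at least 4 times the input level in 851 genes, 36.4% of the listed genes, and at least 16 times in 10 genes. No gene class below was tested against this share. Protein-coding genes made up 2257 of the 2340 (96.5%).

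The ratio varied with the input level. In the lowest input quartile, with input levels from 1.001 to 4.27, the median log2 ratio was 2.01 and 50.9% of the 585 genes reached 4-fold. It was 1.54 in the next quartile and 1.46 in the one after. In the highest quartile, with input levels from 14.9 to 1651, it was 1.16 and 26.5% of genes reached 4-fold. The input level is the denominator of the ratio, and the lower edge of the listed ratios moved with it as well. The smallest ratio listed was 1.86-fold in the lowest input quartile, 1.39-fold in the second, 1.16-fold in the third and 1.14-fold in the highest. Of the 144 genes with an input level under 2, none was listed below 2.60-fold. Genes of low input with a modest ratio are absent from the list, and medians of low-input and high-input genes cannot be read as a difference in recovery. Gene classes are compared below within genes of higher input (at or above the median of 8.08, median log2 ratio 1.32) and of lower input (median 1.82). Genes whose adjusted p-value exceeded 0.05 were 33.3% of the lowest input quartile and 3.93% of the highest.

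**Figure D1:**
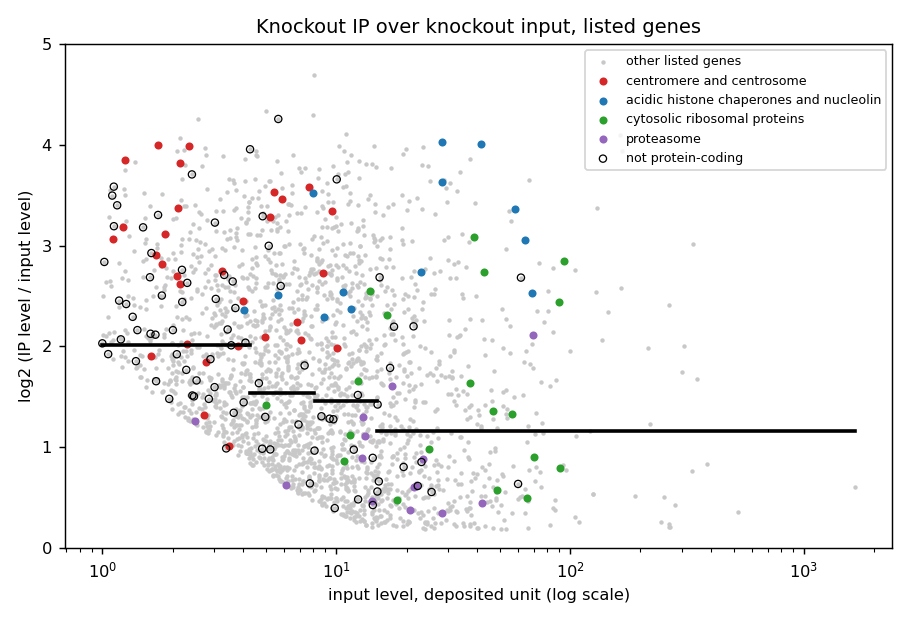
The log2 ratio of IP level to input level of each listed knockout gene is plotted against its input level on a log scale, with 4 gene classes in colour and genes that are not protein-coding as open circles; black lines mark the median of each input quartile, from 2.01 at the lowest input to 1.16 at the highest. The empty lower left corner is the edge of the authors' thresholds.

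Among genes of higher input, the 10 with the largest ratios were 2 HSP90 genes, 2 genes of nuclear acidic proteins and genes of splicing, transcription and the nuclear pore. HTATSF1, a splicing and elongation factor (ENSG00000102241, GRCh38 chromosome X, 136497229 to 136512346), had a level of 190.1 in the IP and 11.0 in the input, 17.3-fold apart. HSP90B1, which folds proteins in the endoplasmic reticulum (ENSG00000166598, chromosome 12, 103930410 to 103947926), stood at 2801 in the IP and 163 in the input, 17.1-fold apart. This is the highest IP level of the table. ANP32B, a histone chaperone (chromosome 9, 97983341 to 98015943), was at 462 in the IP and 28.3 in the input. NCL, which encodes nucleolin (chromosome 2, 231453531 to 231464484), was at 672 and 41.8, so that both were about 16-fold higher in the IP. The splicing genes SLU7 and SRRM1 lay at log2 ratios of 3.99 and 3.98. TPR, the basket protein of the nuclear pore, lay at 3.99, and IK, a splicing protein named as a cytokine in the table, at 3.96. HSP90AA1, the inducible cytosolic HSP90 (chromosome 14, 102080742 to 102139749), had 2545 in the IP and 166 in the input. All 10 were also listed in SiHa, as were 89.0% of all listed genes, at log2 ratios from 2.42 to 2.97 within that separately scaled table.

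Below the median input level, USB1, which trims the end of U6 snRNA (ENSG00000103005, GRCh38 chromosome 16, 57999603 to 58021618), had the highest ratio of the table, 25.8-fold, at 207 in the IP and 8.03 in the input. HMMR, a hyaluronan receptor that also binds the mitotic spindle (chromosome 5, 163460632 to 163491941), followed at 101 in the IP and 5.001 in the input. LARP7, a protein of the 7SK particle, was at 156 in the IP and 7.93 in the input. NKAP, a nuclear regulator of transcription, had 48.8 in the IP and 2.56 in the input. The others of these 10 included genes of centrosome, centromere and microtubules. CENPE, a mitotic kinesin of the centromere (chromosome 4, 103105811 to 103198343), stood at 37.2 in the IP and 2.34 in the input, and CSPP1, a protein of centrosome and spindle poles, at 27.7 and 1.73. The microtubule gene MAP7D3 had 42.9 in the IP and 2.74 in the input, and CCDC34 36.0 and 2.15. The remaining 2 were not protein-coding, RNU1-106P and NPM1P27, and are described with their classes. All 10 were listed in SiHa, at log2 ratios from 1.29 to 3.68.

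**Figure D2:**
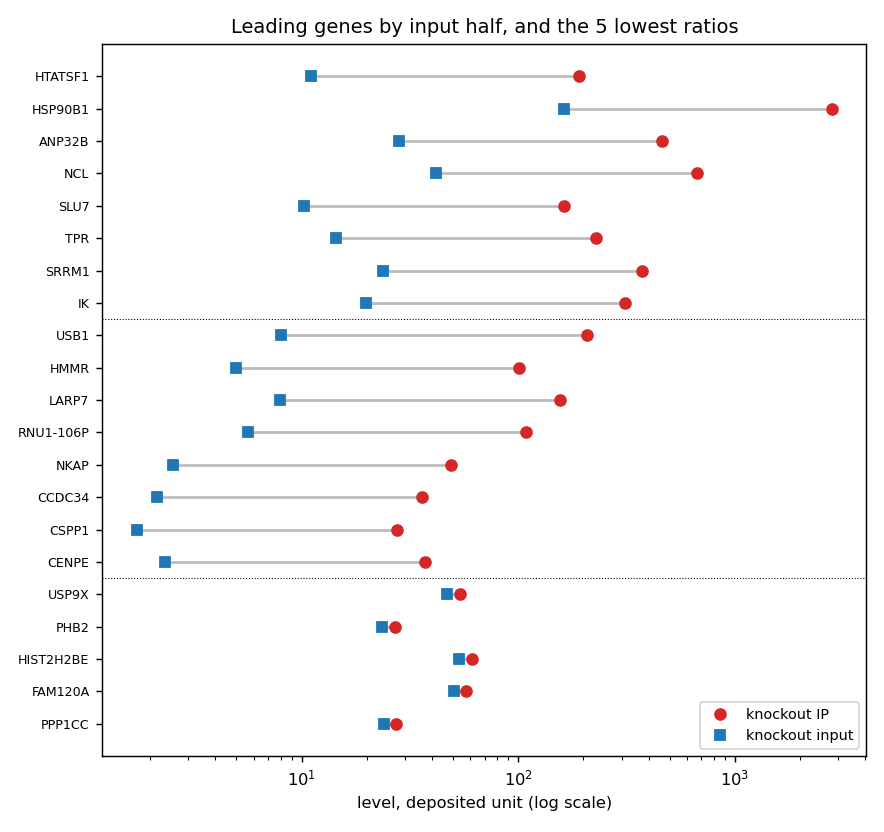
Levels in the knockout IP (circles) and the knockout input (squares) are plotted on a log scale for the 8 largest ratios at or above the median input level (top block), the 8 largest below it (middle block) and the 5 smallest ratios of the table (bottom block). HSP90B1 stands furthest to the right, at an IP level of 2801, and in the bottom block circles and squares nearly touch.

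At the edge of the table were PPP1CC, a catalytic subunit of protein phosphatase 1, at 27.2 in the IP and 23.9 in the input, and FAM120A at 57.5 and 50.5. The histone gene HIST2H2BE stood at 60.9 in the IP and 53.3 in the input, the prohibitin gene PHB2 at 26.9 and 23.4, and the deubiquitinase gene USP9X at 53.9 and 47.0. These 5 were 1.14-fold to 1.15-fold higher in the IP and were listed because of the constant. The same holds for every listed gene with a log2 ratio under 1, and the lower quartile of all listed genes was 0.97. For PPP1CC and PHB2 the authors' adjusted p-value exceeded 0.05. A total of 24 genes had a log2 fold change within 0.05 of the lowest allowed in the authors' deposited table, and 47 had a p-value of 0.045 or more. What lies just outside these limits is not known.

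Genes of the highest levels stood at both ends of the range of ratios. FTH1, the ferritin heavy chain, had the highest input level, 1651, and an IP level of 2511, only 1.52-fold higher. PKM, the glycolytic pyruvate kinase, stood at 670.2 in the IP and 524 in the input, and COL12A1, a fibril-associated collagen, at 689 and 387. BASP1, a membrane-bound signalling protein, reached 2703 in the IP and 334 in the input, 8.09-fold apart. The amyloid precursor genes APLP2 and APP stood at 1410.0 in the IP and 266 in the input, and at 1119.7 and 351. The 10 highest IP levels held 13.3% of the summed IP level of listed genes, and the 10 highest input levels 12.7% of the summed input level.

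Gene classes were formed by biotype, by symbol and by words of the description. Of 23 protein-coding classes with at least 8 listed members, 11 had a median log2 ratio above that of all listed genes. Within higher and lower input, class medians were set against those of all listed genes of the same input, 1.32 and 1.82. They lay above at both in 9 classes and below at both in 10. Among the 9 were the centromere and centrosome genes, the acidic histone chaperones, the coiled-coil domain genes, the chromatin remodellers, the motors and the condensin and cohesin genes. Among the 10 were the proteasome, the nucleoporins and transport receptors, the solute carriers and TMEM genes, the small GTPases and the genes with receptor in their description.

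**Figure D3:**
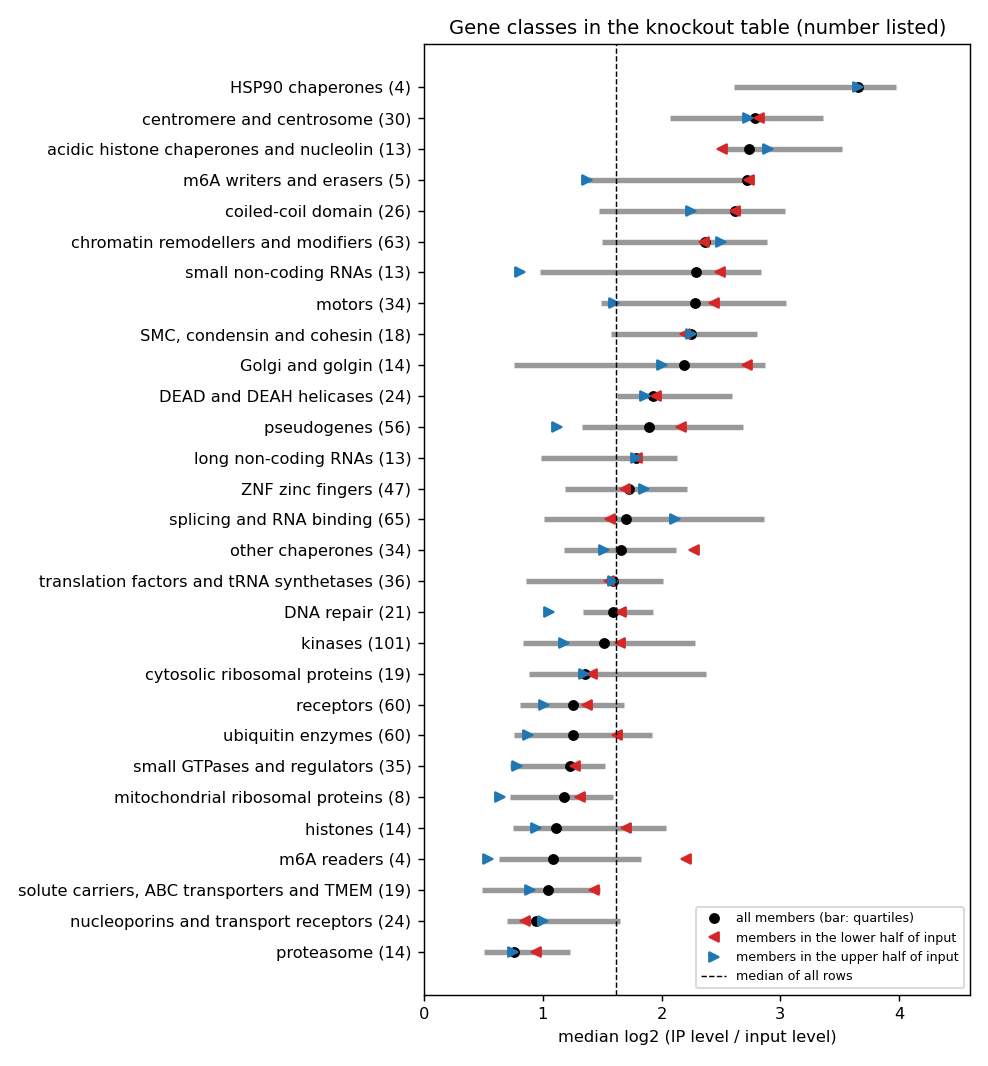
Median log2 ratio of IP to input is plotted per gene class (black points, grey bars from the lower to the upper quartile), with the number listed in brackets and with medians of members below (red) and at or above (blue) the table's median input level. The dashed line is the median of all listed genes, 1.61, HSP90 genes lie highest at 3.66 and proteasome genes lowest at 0.76.

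The centromere and centrosome genes, which organise microtubules and attach chromosomes to them, had the highest median of the classes with 8 or more members. It was 2.78 over 30 genes, of which 25 reached 4-fold (83.3%, against 36.4% of all listed genes). They are mostly genes of low input, with a median level of 21.4 in the IP and 2.75 in the input, and 27 of the 30 lay below the median input level. Within lower input their median was 2.82 against 1.82 for all listed genes, and the 3 of higher input had 2.73 against 1.32. Of 6 listed CENP genes, CENPF, a kinetochore protein, stood at 91.6 in the IP and 7.65 in the input. Of 18 CEP genes 14 reached 4-fold, with CEP112 highest at 17.9 in the IP and 1.25 in the input. CEP55, a protein of the midbody, had 62.6 in the IP and 5.41 in the input. At the low end CENPK stood at 7.03 and 3.48, and CEP192 at 6.78 and 2.72.

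Motor genes, which encode proteins that walk on microtubules or actin, had 34 members at a median of 2.28. All 34 were listed in SiHa too, against 89.0% of all listed genes. Of 42 annotated kinesin genes 20 were listed (11.2% of all annotated protein-coding genes were), at a median log2 ratio of 2.29 and a range from 1.07 to 3.54. KIF5B, the heavy chain of conventional kinesin, led them with 382 in the IP and 32.9 in the input. KIF21A stood at 51.3 in the IP and 4.61 in the input, and the mitotic KIF15 at 19.9 and 2.07. Of 25 annotated myosin genes with MYO symbols 9 were listed, from 1.14 to 3.11, with MYO5A, a vesicle motor, highest and MYO9A lowest. Genes with MYH symbols, 2 of 15 listed at a median of 2.71, were not counted among the 25. The light chain gene DYNLRB1 was the lowest of the class, at 119.7 in the IP and 86.3 in the input. At higher input the class median was 1.60 and at lower input 2.44.

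Coiled-coil domain (CCDC) genes, a family named for a rod-like protein fold, had 26 listed members at a median of 2.62. Of the 26, 17 reached 4-fold (65.4%, against 36.4% of all listed genes). They are mostly genes of low input, 20 of the 26 below the median, where 42.6% of all listed genes reached 4-fold. At lower input their median was 2.62 against 1.82 for all listed genes, and at higher input 2.25 against 1.32. After CCDC34, CCDC66 lay highest at 33.3 in the IP and 3.27 in the input. CCDC86 was lowest at 19.1 in the IP and 13.9 in the input. Genes with Golgi or golgin in their description had 14 members, from 0.36 to 3.79. Of these, 6 are golgins, long tethers of the Golgi, at a median log2 ratio of 2.87 and a lowest value of 1.85. That group was formed after the values were seen and leaves out GOLGA7, which bears the symbol but is a small protein of a palmitoyltransferase, at 12.6 in the IP and 9.74 in the input. GOLGA4 stood at 343 in the IP and 24.7 in the input, and GOLGB1, giantin, at 223 and 20.5. The other genes of the class lay on both sides of the golgins' lowest value. GOLIM4, an integral Golgi membrane protein, had 313 in the IP and 25.2 in the input, WHAMM 16.5 and 2.74, and GOLM1 81.5 and 17.3. TGOLN2 stood at 62.8 in the IP and 49.0 in the input, and GORASP2 at 41.9 and 31.3.

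The acidic histone chaperones and nucleolin, proteins that hold or exchange histones, had 13 of 14 members listed, against 11.2% of all annotated protein-coding genes. This list of members was written after the values were seen. NPM3 was not listed. All 13 listed members reached 4-fold, against 36.4% of all listed genes. Their median was 2.73, at a median level of 153 in the IP and 23.1 in the input. Beside ANP32B and NCL, SUPT16H, a subunit of the FACT complex, had 351 in the IP and 28.3 in the input. NPM1, nucleophosmin, had 600.0 in the IP and 58.1 in the input, and PTMA, prothymosin alpha, 534 and 64.2. The lowest was SSRP1, the other FACT subunit, at 43.4 and 8.86. At higher input the class median was 2.89 against 1.32 for all listed genes.

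Histone genes divided into 2 groups that did not overlap, a division noticed after the values were seen. The 5 listed linker histones, which bind the DNA between nucleosomes, lay at log2 ratios from 1.70 to 3.31. HIST1H1E stood at 157 in the IP and 15.9 in the input, and HIST1H1C at 988 and 166. The 9 listed core histones and variants lay from 0.19 to 1.25. The highest of them, HIST1H2AL, had 11.9 in the IP and 4.98 in the input, and HIST1H3C had 24.7 and 20.6. Core histone genes are near-identical copies of each other, so reads may be split between them and their single values are uncertain. Replication-dependent histone mRNAs also lack a poly(A) tail, which the mRNA kit may treat differently from other mRNAs, and its part in these values was not tested.

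Chromatin remodellers and modifiers had 63 listed members of 105 annotated (60.0%, against 11.2% of all annotated protein-coding genes), and all 63 were also listed in SiHa, where 89.0% of all listed genes were found. Their median was 2.37, with 2.50 at higher input and 2.36 at lower input. The bromodomain genes of the BRD and BAZ series, readers of acetylated histones, had a median of 2.95 over 10 genes. BAZ1B stood at 203 in the IP and 14.8 in the input, and BRD7 at 45.1 and 3.68. The 7 listed CHD remodellers kept to a narrow range, 2.16 to 2.88, and BPTF, a subunit of the NURF remodeller, had 148 in the IP and 14.7 in the input. The 8 listed KDM histone demethylases lay lower, at a median of 1.06 and with none at 4-fold, against 36.4% of all listed genes. The highest was KDM1A at 1.69 and the lowest KDM5C at 26.3 in the IP and 19.8 in the input.

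Of 22 annotated condensin and cohesin genes, which encode rings that fold and hold chromosomes, 18 were listed (81.8%, against 11.2% of all annotated protein-coding genes). All 18 were in the SiHa list as well, against 89.0% of all listed genes. The 6 SMC ATPases had a median of 2.99 and all reached 4-fold, against 36.4% of all listed genes. SMC3 had 124 in the IP and 11.5 in the input, SMC2 99.3 and 9.19, and SMC1A 186 and 17.5. The 12 other genes had a median of 1.80, and 4 of them reached 4-fold. RAD21, the subunit that closes the cohesin ring, stood at 224 in the IP and 31.8 in the input. The condensin subunits NCAPD2 and NCAPD3 were lowest, at 14.1 and 9.98 and at 13.5 and 8.41. Of 66 annotated DNA repair genes 21 were listed, with a median of 1.59, near that of all listed genes. Of the 21, 16 lay at lower input, where their median was 1.66 against 1.82 for all listed genes. At higher input it was 1.05 against 1.32. The helicase gene WRN stood highest at 21.5 in the IP and 2.61 in the input, and PMS2, a mismatch repair gene, lowest at 13.7 and 10.9.

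All 4 HSP90 genes were listed, where 11.2% of all annotated protein-coding genes were, but not at like ratios. HSP90AB1, the constitutive cytosolic form, had 1347 in the IP and 129.9 in the input. TRAP1, the mitochondrial form, had 14.7 in the IP and 11.9 in the input, a log2 ratio of 0.31 against 3.37 for HSP90AB1, and its adjusted p-value in the authors' deposited table exceeded 0.05. The 34 other chaperones had a median of 1.66, close to that of all listed genes. Of the 34, 27 lay at higher input, where their median was 1.52 against 1.32 for all listed genes. At lower input it was 2.27 against 1.82. DNAJC2, a chaperone of the ribosome, stood at 67.8 in the IP and 4.54 in the input, and DNAJC21 at 200.5 and 14.3. Of the HSP70 genes, HSPA5, the form of the endoplasmic reticulum, had 708 in the IP and 105 in the input. The 3 listed CCT chaperonin genes lay from 0.45 to 1.21, with CCT8 lowest at 51.1 and 37.4.

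Splicing and RNA-binding genes spread widely, from 0.22 to 3.99 over 65 members. Their median of 1.70 was near that of all listed genes, and it went opposite ways by input. At higher input it was 2.11, above the 1.32 of all listed genes, and at lower input 1.57, below 1.82. SF3B2, a subunit of the U2 particle, stood at 246 in the IP and 22.2 in the input, and CWC22 at 44.2 and 3.49. The SR protein genes SRSF, splicing regulators, had a median of 0.77 over 7 genes. Of the 7, 1 reached 4-fold, SRSF11 at 3.07, where 36.4% of all listed genes did. SRSF3 was lowest of these with 14.5 in the IP and 11.9 in the input, and SNRPA, a U1 protein, lowest of the class with 22.5 and 19.3. DEAD and DEAH helicases, which unwind RNA, were listed for 24 of 54 genes (44.4%, against 11.2% of all annotated protein-coding genes). Their median was 1.93. DDX10 stood at 41.4 in the IP and 2.77 in the input, whereas DDX17 was near the edge at 45.7 and 39.8.

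Of 87 annotated ribosomal protein genes 19 were listed (21.8%), against 11.2% of all annotated protein-coding genes and 21.2% of the genes tested. Of the 19, 18 lay at higher input, and the median of the 19 was 1.36. The listed ones were not evenly recovered. RPL4 had 330 in the IP and 38.8 in the input, RPL5 674 and 93.8, and RPL6 286 and 42.9. At the other end RPS23 stood at 25.4 in the IP and 18.3 in the input. Of the large subunit 13 of 53 annotated genes were listed, 5 of them at 4-fold, and of the small subunit 6 of 34, with 1 at 4-fold, RPS24. Together 31.6% of the 19 reached 4-fold, near the 36.4% of all listed genes and the 30.1% of those of higher input. Mitochondrial ribosomal proteins had 8 of 77 listed (10.4%), near the 11.2% of all annotated protein-coding genes and below the 21.2% of the genes tested. How many of the 77 were tested is not known. Translation factors and tRNA synthetases had 36 members at 1.59. EIF5B, which joins the ribosomal subunits, stood at 143 in the IP and 10.9 in the input, EIF2S2, a subunit of the factor that brings the initiator tRNA, at 350.1 and 29.4, and EIF3A at 218 and 19.2. The elongation factor EEF2 was lowest with 294 in the IP and 245 in the input.

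The lowest class medians were those of the proteasome, 0.76 over 14 genes, and of nucleoporins and transport receptors, 0.94 over 24. The proteasome degrades ubiquitin-tagged proteins in a core closed by regulatory particles. Among all annotated protein-coding genes 11.2% were listed. The non-ATPase subunits of the regulatory particle (PSMD) had 9 of 14 genes listed and the base ATPases (PSMC) 3 of 6. The core alpha subunits had 1 of 8 and the core beta subunits 0 of 11. The 1 core subunit, PSMA7, had the highest ratio of the class, at 299 in the IP and 69.2 in the input. It was the only gene of the class at 4-fold (7.14%, against 36.4% of all listed genes). Among the nucleoporins and transport receptors TPR stood apart at 229 in the IP and 14.5 in the input. The next, the import receptor IPO7, had 101 and 21.4, and all others were below 4-fold, so that 8.33% of the class reached it. The export receptor XPO1 had 31.8 in the IP and 24.6 in the input.

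Ubiquitin enzymes had 60 members at 1.25, led by USP8, a deubiquitinase of endosomes, at 34.7 in the IP and 2.24 in the input. The 35 small GTPases and regulators had a median of 1.23, and ARHGAP21 led them at 123 in the IP and 14.5 in the input. The 60 genes with receptor in their description had a median of 1.26, and the 101 with kinase in it 1.51. The word receptor also takes in genes that encode no receptor, such as TRAP1, which is counted with the HSP90 genes too. SLK, a kinase of the cytoskeleton, led the kinases at 100.5 in the IP and 7.35 in the input. Solute carriers, ABC transporters and TMEM genes had 19 listed members at 1.04. The highest 3 were SLC4A1AP, ABCF1 and ABCF2, at 3.07, 2.91 and 2.21. The first is named as an adaptor of a carrier, and the ABCF proteins lack membrane spans. Of the carriers themselves, SLC38A2, an amino acid transporter, had 182 in the IP and 126 in the input.

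ZNF zinc finger genes, many of which encode KRAB repressors, had 47 of 517 annotated members listed (9.09%), near the 11.2% of all annotated protein-coding genes. Of the 47, 38 lay below the median input level, and 38.3% had an adjusted p-value over 0.05 in the authors' deposited table, against 19.6% of all listed genes. The median was 1.73. ZNF721 stood highest at 45.8 in the IP and 4.23 in the input, and ZNF638 at 90.3 and 10.2. At lower input the class median of 1.69 was below the 1.82 of all listed genes of lower input. At higher input 1.85 was above the 1.32 of all listed genes of higher input.

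Genes of the m6A pathway were among those recovered from the cells labelled as knockout. Of 11 writers and erasers 5 were listed, where 11.2% of all annotated protein-coding genes were, at a median of 2.72. All 5 are genes of the methyltransferase complex. No eraser of the class was listed, nor was METTL3. Of the 5, 4 lay at lower input, where the median of all listed genes was 1.82, and 3 reached 4-fold, against 36.4% of all listed genes. ZC3H13, a scaffold of the methyltransferase complex, had 77.3 in the IP and 7.39 in the input. METTL14, the RNA-binding partner of the catalytic subunit, had 11.3 and 1.67, and VIRMA, the largest scaffold, 36.2 and 5.49. WTAP stood at 32.1 in the IP and 12.4 in the input, and CBLL1 at 14.7 and 7.29. Of 14 readers 4 were listed. YTHDC1, the nuclear YTH reader, had 39.8 in the IP and 5.13 in the input and was the only one at 4-fold. FMR1 stood at 9.07 and 3.32, FXR1 at 14.7 and 8.93, and HNRNPC at 41.9 and 32.6.

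By symbol families, the share of annotated protein-coding genes that was listed ran from 0 to 81.8%, against 11.2% over all annotated protein-coding genes. Families were taken as RefSeq symbols with the same leading letters and at least 8 annotated genes, 370 in all. The share depends on which genes a family has expressed in these cells, which the table does not give. In 18 families 50% or more were listed. The highest was UTP, proteins of the early small ribosomal subunit, with 9 of 11 genes. BRD had 7 of 9, the splicing family PRPF 9 of 12, symbols that start with CHD 8 of 11, and MCM, mostly DNA replication helicase subunits, 6 of 10. The PSMD family had a high share (9 of 14) and a low median ratio, 0.61. In 170 families, with 2810 annotated genes, no gene was listed. The largest were the olfactory receptors (0 of 392), the hair keratin-associated proteins KRTAP (0 of 94) and the cytochrome P450 genes CYP (0 of 56). Of the respiratory chain families, NDUF had 4 of 46 genes listed (8.70%), near the 11.2% of all annotated protein-coding genes. COX had 1 of 29 (3.45%). Solute carriers had 9 of 386 and TMEM genes 6 of 233. No mitochondrially encoded gene was listed.

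**Figure D4:**
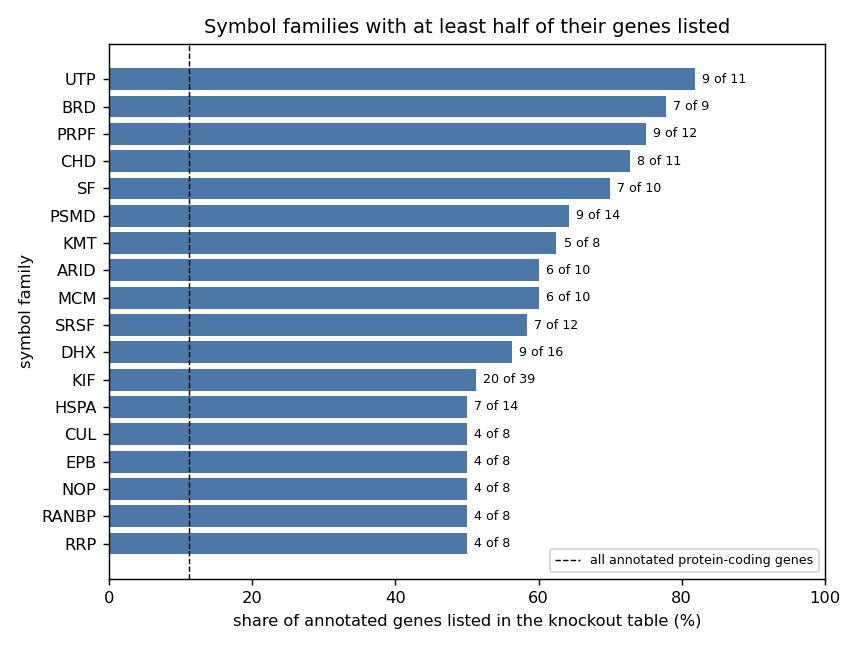
Bars give the share of annotated protein-coding genes of a symbol family that are listed in the knockout table, for the 18 families with at least 50% listed; the dashed line is the share of all annotated protein-coding genes, 11.2%. UTP is at the top with 9 of 11 genes.

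Listed protein-coding genes spanned more of the genome than annotated ones, with a median span of 54.3 kb against 24.1 kb. Of the annotated genes in the shortest quartile of span, up to 8.53 kb, 2.83% were listed, and 7.38%, 15.2% and 19.5% in the next 3 quartiles. The median log2 ratio of the listed genes was 1.40 in the shortest quartile, 1.46 and 1.62 in the next, and 1.66 in the longest. The span holds introns and is not the length of the mRNA. By chromosome the share listed ran from 7.26% on chromosome 16 to 15.1% on chromosome 13.

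Of the 83 genes that are not protein-coding, 46 lay in the lowest input quartile. Pseudogenes made up 56, at a median log2 ratio of 1.90, with 1.12 for the 16 at higher input and 2.17 for the 40 at lower input. Most are processed copies of mRNAs, and reads of a parent and its copy can be split between them, so these values are uncertain. For 39 the parent gene, taken from the symbol, was listed too, and in 32 of these the 2 log2 ratios were within 0.5 of each other. The median difference of pseudogene minus parent was -0.04. NPM1P27 stood at 66.5 in the IP and 4.28 in the input, a log2 ratio of 3.96 against 3.37 for NPM1. HSP90AA2P had 31.6 and 2.42, or 3.71 against 3.94 for HSP90AA1. EIF2S2P4 had 127 in the IP and 10.1 in the input, or 3.66 against 3.57 for EIF2S2. The 3 ferritin copies FTH1P2, FTH1P7 and FTH1P8 lay from 0.48 to 0.85, and FTH1 at 0.60. The widest gap was that of HTATSF1P2, at 7.79 in the IP and 2.29 in the input, a log2 ratio of 1.77 against 4.11 for HTATSF1. In the other direction HNRNPA1P10 lay at 1.85 and HNRNPA1 at 0.62.

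**Figure D5:**
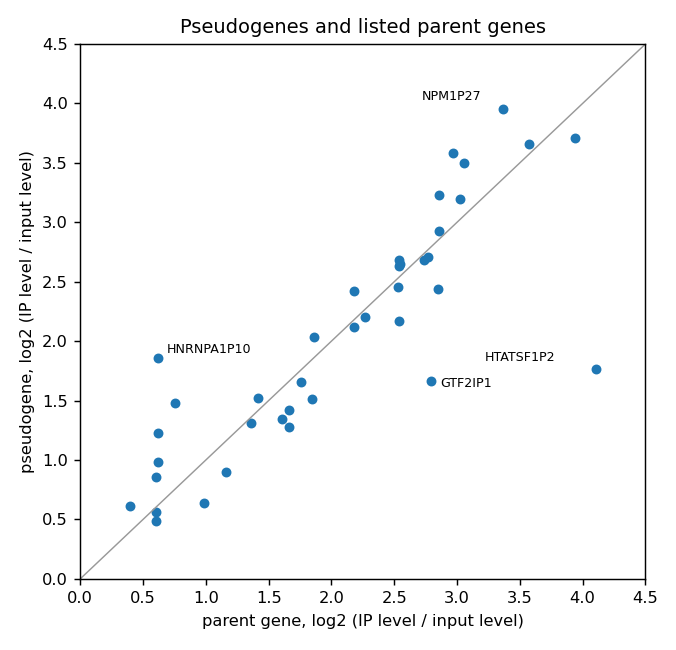
The log2 ratio of IP to input of 39 listed pseudogenes is plotted against that of the listed parent gene, with the line of equality. Most points lie near the line, 32 of 39 within 0.5, and HTATSF1P2 lies furthest from it, at 1.77 against 4.11 for HTATSF1.

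Long non-coding RNAs had 13 listed members, and the 2 of largest ratio were AL161431.1, with 396 in the IP and 61.7 in the input, and PVT1, a transcript neighbouring MYC, with 35.1 and 5.79. ESRG stood at 81.0 in the IP and 17.7 in the input. Of the 13, 4 were listed in SiHa as well, and of the 13 small non-coding RNAs 5, against 2083 of all 2340 genes (89.0%). The splicing and RNA-binding genes had 48 of 65 also listed in SiHa and the CCDC genes 20 of 26. The share was 80.2% in the lowest input quartile and 93.3% in the highest. The median input level of all listed genes was 8.08. It was lower in the long non-coding RNAs (5.79), the small non-coding RNAs (3.06) and the CCDC genes (3.77). In the splicing and RNA-binding genes it was higher, 9.73. None of these differences was tested.

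The small non-coding RNAs were mostly of low input, 10 of 13 below the median. The library kit selects poly(A) RNA and the counting rule is not given, so reads assigned to them may come from overlapping or near-identical transcripts. Of the 10 that matched a RefSeq gene, 9 lay inside the span of another annotated gene and 4 inside that of a listed one. RNU1-106P, a U1 snRNA pseudogene (ENSG00000207110), stood at 108 in the IP and 5.66 in the input, 19.1-fold apart, and lies within the span of PVT1. SCARNA21, a guide RNA of Cajal bodies, lies within CHD3, but its values were 37.6 in the IP and 25.6 in the input while CHD3 had 185 and 25.1. SNORD62B lies within PRRC2B, with 10.2 and 1.80 against 49.9 and 22.0. The 5S rRNA pseudogenes RNA5SP283 and RNA5SP174 had 17.1 and 1.73, and 17.0 and 3.06. SCARNA5, a Y RNA, and a U2 snRNA were also listed.

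Of the 5 listed miRNA genes, RefSeq (GRCh38.p14) gave a mature sequence for 3. Their precursors lie within the spans of longer annotated genes, whose strand was not compared. The sequences are shown so that a reader can see which short RNA each row is named for. The capitals mark the seed, bases 2 to 8, which pairs with targets.
hsa-miR-1244: aAGUAGUUgguuuguaugagaugguu
hsa-miR-1282: uCGUUUGCcuuuuucugcuu
hsa-miR-4767: cGCGGGCGcuccuggccgccgcc
No seed was shared among them. MIR1244-2 (chromosome 5, 118974586 to 118974670, plus strand) stood at 47.5 in the IP and 4.85 in the input, a log2 ratio of 3.29. It lies within PTMAP2, a pseudogene of PTMA, which had 12.5 in the IP and 1.10 in the input, a log2 ratio of 3.50, while PTMA was at 3.06. MIR1282 (chromosome 15, 43793659 to 43793759, minus strand) had 7.30 in the IP and 1.02 in the input. It lies within the span of SERF2, which was not listed. MIR4767 (chromosome X, 7147860 to 7147937) had 23.4 in the IP and 11.9 in the input, and lies within the spans of PUDP and STS, neither of them listed. MIR3648-1, at 8.97 in the IP and 2.00 in the input, lies within the ribosomal RNA gene RNA45SN2. MIR3687-1 stood at 34.0 in the IP and 19.4 in the input. These values do not separate mature miRNA from any longer transcripts around it.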

How the data were processed

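RNA immunoprecipitation with an antibody against YTHDF3 was sequenced from the SiHa line and from its derivative labelled as knockout for YTHDF3, with 1 IP and 1 input library each. The submitters' processing notes name FastQC 0.11.7 and the builds GRCh38 and hg38. For aligner, counter, scaling and test, nothing is given in the sources used here. The authors' deposited knockout table gives, per the file headers, a signal (level) per gene in each library, a log2 fold change, a p-value and an adjusted p-value. From its values, it holds rows with a log2 fold change of at least 1.0 and a p-value under 0.05. Depth is unknown, since the levels are not counts, so no interval could be given.

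The log2 ratio of IP level to input level was computed for all 2340 rows with Python 3.11.15, pandas 2.3.3 and numpy 2.4.6, with no filter and no pseudocount. The number of genes tested was the smallest for which adjusted p over p gave whole ranks in nearly all of 1048 rows (100% within 0.02, against 50.2% at the next best number). This step was tested on simulated data. Symbols were matched to RefSeq (GRCh38.p14) for 2315 rows, and positions are RefSeq's.

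Named genes were the 10 highest ratios at or above the median input level, the 10 highest below it, the 5 lowest, the 5 highest IP and input levels, up to 4 highest and 2 lowest members of each class, and the YTHDF and m6A genes. Other class members named were chosen after their values were seen. Some genes chosen this way are left out of the text. The members and lists were chosen with earlier results of these data known, and the class patterns, symbol families and subgroups were written after the table was seen. The SiHa table was used only for whether a gene is listed there and for its ratio there, since the tables were made separately.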

Additional observations from a re-analysis of the deposited data

How the results depend on the processing

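The median log2 ratio over all listed genes, 1.61, was 1.41 with 1 added to both levels, 1.84 among genes with the authors' adjusted p-value at 0.05 or less, 1.32 among genes at or above the median input level, and 2.43 by the authors' deposited log2 fold change. The share with an IP level at least 4 times the input level was 30.0%, 44.3%, 30.1% and 66.6% in the same order, against 36.4%. The lowest input quartile minus the highest was 0.86, and 0.48, 1.16 and 0.33 under the first 3 of these. With protein-coding genes alone the 3 values were 1.60, 35.9% and 0.80. Each class median was set against that of all listed genes under the same setting. Of 23 classes, 17 kept the sign of this difference under the 4 settings that could change it. By the deposited log2 fold change, which differs by a constant, no class difference can change. Adding 1 turned DNA repair to 0.0052 and translation factors to 0.11. The adjusted p-value limit turned the other chaperones to -0.15. Within higher input, translation factors were at 0.28 and cytosolic ribosomal proteins at 0.030, and within lower input, ZNF genes at -0.13 and splicing genes at -0.25. The causes were not tested. No paired analysis was possible because each side is 1 library, and leaving out a replicate could not be run for the same reason. The planned share of lysine and glutamate was not run, since no protein table was used here. Depth is unknown, so what it limits cannot be stated.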
